A study of Mus musculus with 19 samples.

Results

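A set of 62 protein-coding genes had less mRNA in the Glud1KO libraries than in the WT libraries at each of 3 stages of myogenic culture. They were chosen on the measured values themselves, from 12048 protein-coding genes with a WT mean of at least 1 TPM at 1 stage or more. TPM is kallisto's unit of abundance, corrected for transcript length and library depth and here summed over the transcripts of a gene. At each stage the Glud1KO mean had to be at most 0.85 times the WT mean, and every Glud1KO library had to lie below every WT library. These thresholds were met at all 3 stages by 71 genes, 0.589% of the 12048, and 9 of them (Gbp4, Gbp6, Gbp8, Gbp9, Gbp10, Lrrc8b, Lrrc8c, Sost and Mef2a) are not among the 62 because the rule leaves them out by name. The mirror rule, with the signs turned, no names left out and the floor set on the Glud1KO mean, found 2 genes, Il1r1 and Ifi204. Differences between the genotypes given below for the 62 genes restate what chose them, so they are descriptions, and nothing is read from a count of calls among them.

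The cells were primary myoblasts, the muscle precursor cells, taken from the hind limbs of mice and cultured. WT served as the control for cells deficient in Glud1, and the labels do not say how the gene was inactivated or at what age the mice were used. Proliferating myoblasts at 24 h in growth medium were covered by 3 WT and 3 Glud1KO libraries, differentiated myotubes at 48 h by 3 and 2, and fused myotubes at 72 h by 4 and 4. The replicates are numbered and called biological, without separate animals or cultures being named, so the spread and every p below describe these libraries and may be technical. The names of the deposited files mark the libraries of both genotypes as KO, with an added T for those labelled Glud1KO, and the meaning of the T is not stated. The labels were followed, and Glud1KO below means the libraries with that label.

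Myoblasts divide in growth medium, leave the cell cycle, switch on muscle genes under the myogenic transcription factors, and fuse into multinucleate myotubes. GLUD1, glutamate dehydrogenase, sits in the mitochondrial matrix, where it interconverts glutamate and alpha-ketoglutarate, the latter also a substrate of TET enzymes and other dioxygenases. The 62 genes belong to no single known pathway. By role they were 8 secreted ligands and their regulators, 3 matrix genes, 9 receptor and membrane signalling genes, 4 immune or interferon-inducible genes, 3 stress-response regulators, 12 transcription and chromatin genes, 6 muscle fibre genes, 9 enzymes or transporters, and 8 cytoskeletal, junction or trafficking genes.

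The targeted gene is itself a member. Glud1 (chr14:34310727-34345265, plus strand, GRCm38 in the GENCODE M21 annotation, as for all gene positions below) gave 168, 175 and 163 TPM in WT and 136, 142 and 139 TPM in Glud1KO in myoblasts. It gave 79.5, 85.8 and 86.2 TPM in WT and 64.5 and 58.9 TPM in Glud1KO in differentiated myotubes and 102, 106, 101 and 101 TPM in WT and 75.7, 79.3, 79.96 and 82.6 TPM in Glud1KO in fused myotubes. The means were 17.5%, 26.4% and 22.3% lower at the 3 stages, and no library of one genotype overlapped the other. The counts did not show this gap. In CPM, counts scaled to library size with TMM factors, Glud1 gave 189 ± 4.16 in WT and 187 ± 2.69 in Glud1KO myoblasts, 106 ± 5.23 and 99.8 ± 4.48 in differentiated myotubes, and 135 ± 4.49 and 133 ± 3.82 in fused myotubes (SD, n as above). The libraries of the 2 genotypes overlapped on this scale at every stage.

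Within Glud1 the difference lay in a short transcript model. The 3390-nt transcript ENSMUST00000022322 was at 87.99 and 91.1 TPM in WT and Glud1KO myoblasts, at 44.6 and 39.8 TPM at 48 h, and at 51.8 and 53.1 TPM at 72 h (means). The 699-nt transcript ENSMUST00000159784 was at 79.95 and 42.04 TPM, at 37.2 and 21.1 TPM, and at 49.1 and 22.7 TPM. A short transcript gains more TPM per read than a long one, so Glud1 entered the set through a small share of its reads. The Glud1KO label is therefore not accompanied by a loss of Glud1 counts in these libraries. Which part of Glud1 the deficiency removes is not given in the sources used here, so the counts check the labels only in part.

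**Figure D1:**
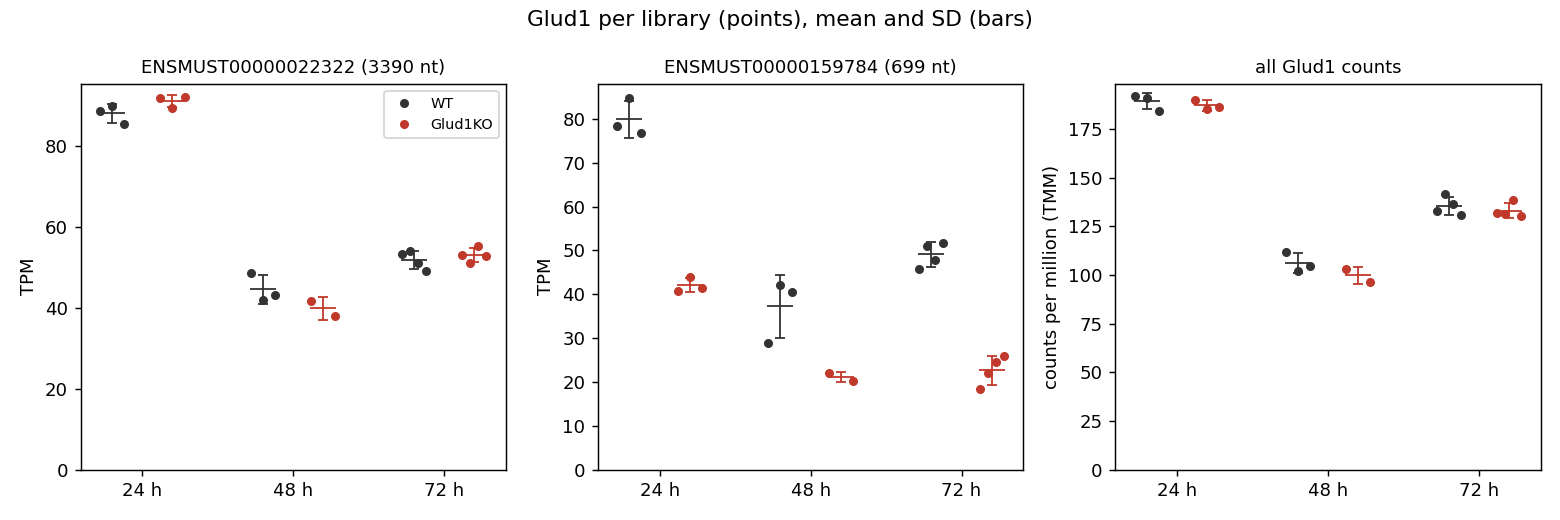
Glud1 in each library (points), with mean and SD (bars), for WT (dark) and Glud1KO (red) at 24, 48 and 72 h. The genotypes overlap in the CPM of the whole gene (right) at all stages and in the long transcript (left, TPM) at 24 and 72 h, while the 699-nt transcript (middle, TPM) has means of 79.95 against 42.04, 37.2 against 21.1 and 49.1 against 22.7.

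Libraries held 16168131 to 30742634 estimated counts. The first principal component of the counts, with 77.7% of the variance, followed the stages, and at 48 h it lay at 61.2 to 61.8 in Glud1KO against 33.9 to 37.5 in WT, on the side of the fused myotubes (89.3 to 94.9). TPM ratios were also shifted at 48 h, where the median over the 12048 genes was -0.14 on the log2 scale, against -0.004 at 24 h and -0.04 at 72 h. The part of both shifts in the values of the 62 genes was not tested. Myoblast markers fixed for these samples were present in all groups, with a summed level of 1357 to 3763 TPM for 8 genes. Fibroblast markers (8 genes) summed to 150.3 to 169 TPM in WT and 130 to 154 TPM in Glud1KO myoblasts, and to 12.4 to 13.4 TPM against 5.81 to 7.41 TPM in differentiated myotubes, with Lum and Dpt under 0.1 TPM in every group mean. Smooth muscle and pericyte markers (6 genes) summed to 2745 to 3045 TPM against 1850 to 2061 TPM in differentiated myotubes, with Pdgfrb and Kcnj8 under 0.1 TPM in both genotypes. The part of these markers in the results was not tested. Schwann and glial markers (6 genes) summed to 5.52 to 121 TPM with Sox10 under 0.1 TPM in every group mean. Endothelial, immune and adipocyte markers summed to at most 10.5, 8.89 and 0.346 TPM in any library.

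The gaps were mostly moderate. The median of the 62 genes was 33.4% lower in Glud1KO at 24 h, 42.5% at 48 h and 30.8% at 72 h, which corresponds to log2 ratios of -0.58, -0.80 and -0.53. Without Gm12185, which was listed at 0 in both Glud1KO libraries at 48 h, the median there was 41.0%. The 48 h value stands beside the shift of -0.14 in all genes. In bulk RNA, fewer cells of a type and less RNA per cell cannot be told apart. At least 2-fold lower means were found for 12, 25 and 14 genes, and Dbh, Traf1, Cgnl1 and Tap2 were at least 2-fold lower in mean TPM at all 3 stages. By contrast, 29 genes reached that size at none. The lowest ratio fell at 24 h for 15 genes, at 48 h for 31 and at 72 h for 16.

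**Figure D2:**
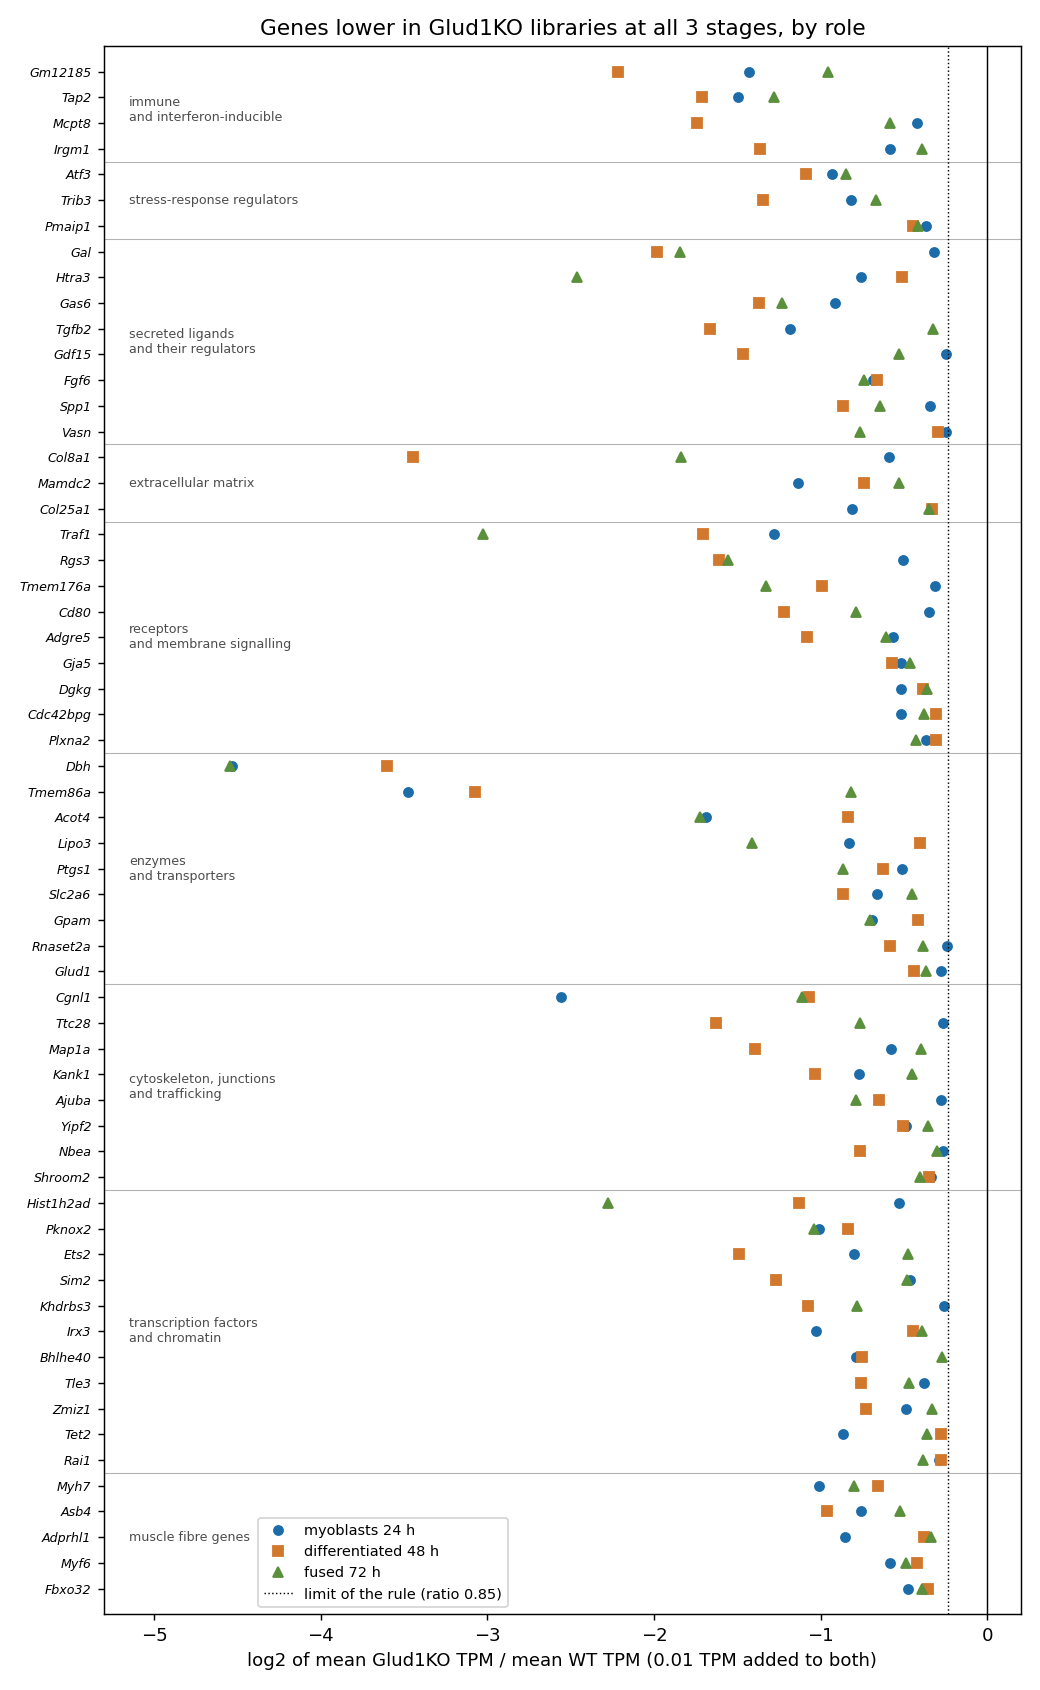
Log2 ratio of mean Glud1KO to mean WT TPM (0.01 TPM added to both, horizontal axis) for 60 of the 62 genes, grouped by role, at 24 h (circles), 48 h (squares) and 72 h (triangles). All points lie left of the rule's limit of 0.85 (dotted line), most lie within -1, and Dbh, Tmem86a and Col8a1 reach furthest left.

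The same thresholds at a single stage were met by 955 of the 12048 genes at 24 h (7.93%), 3316 at 48 h (27.5%) and 435 at 72 h (3.61%), against 365, 483 and 323 genes for the mirror thresholds. The mirror counts take their floor from the Glud1KO mean, so they are not drawn from the same 12048 genes. The 48 h stage, with 2 Glud1KO libraries and the shift in all genes, was thus the least restrictive. Full separation of the libraries with the lower values in Glud1KO, whatever the size, was found for 15.4%, 40.9% and 7.65% of the genes. On the count scale, the quasi-likelihood test of edgeR, at a Benjamini-Hochberg adjusted p under 0.05 over 15123 genes, called 49, 48 and 59 of the 62 genes lower in Glud1KO and 0 higher, and 44 at all 3 stages. Of all genes tested, 6.69%, 14.1% and 6.72% were called lower, and 11.6%, 25.2% and 13% in either direction. Since the rule used these contrasts, nothing is read from the counts of members.

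Among the secreted ligands, Spp1 had the highest level of the set in myoblasts, and by far. It encodes osteopontin, a secreted phosphoprotein that binds integrins. Spp1 (chr5:104435118-104441050, plus strand) was at 3021, 3157 and 3236 TPM in WT and 2552, 2435 and 2433 TPM in Glud1KO in myoblasts. Spp1 was at 232, 182 and 209.6 TPM in WT and 107 and 121 TPM in Glud1KO in differentiated myotubes and 258, 265, 233 and 213 TPM in WT and 158, 155, 155 and 153 TPM in Glud1KO in fused myotubes. The WT and Glud1KO libraries were apart at each stage, with means 21.2%, 45.1% and 36.01% lower, on top of a change between stages that was far larger than the genotype gap. In WT, Spp1 counts fell by 3.76 on the log2 scale from myoblasts to differentiated myotubes (SE 0.076, edgeR adjusted p = 1.45e-25). Gm42793, an annotation of uncertain status, overlaps Spp1 on the same strand. The 250 bases before the start site of Spp1 (RefSeq, GRCm38.p6) are shown because they hold 1 of the 4 members' windows with an interferon-stimulated element, GAAA repeated after 2 free bases, in capitals on the reverse strand.
Spp1 (chr5:104434861-104435110, plus strand): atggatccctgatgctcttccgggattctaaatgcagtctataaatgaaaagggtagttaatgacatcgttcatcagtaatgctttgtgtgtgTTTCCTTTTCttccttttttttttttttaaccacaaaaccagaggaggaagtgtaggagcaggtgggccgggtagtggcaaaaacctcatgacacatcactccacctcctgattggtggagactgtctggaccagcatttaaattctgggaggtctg

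Gas6, the ligand of the TAM receptor kinases, and Tgfb2, a transforming growth factor beta, are further ligands of the set. Gas6 (chr8:13465374-13494490, minus strand) was at 72.4, 72.1 and 75.3 TPM in WT and 36.7, 37.8 and 42.2 TPM in Glud1KO in myoblasts, at 50.1, 42.1 and 43.6 TPM in WT and 17.3 and 17.7 TPM in Glud1KO in differentiated myotubes, and at 61.2, 59.2, 58.5 and 48.4 TPM in WT and 22.8, 23.9, 24.2 and 25.8 TPM in Glud1KO in fused myotubes. The lowest WT library stood above the highest Glud1KO library by a wide margin at each stage, and the means were 46.9%, 61.3% and 57.5% lower. Tgfb2 was at 12.6, 14.5 and 13.6 TPM in WT and 4.95, 6.68 and 6.28 TPM in Glud1KO in myoblasts and at 9.44, 8.77 and 8.15 TPM in WT and 2.93 and 2.61 TPM in Glud1KO in differentiated myotubes. In fused myotubes it was at 23.5, 19.9, 20.7 and 24.1 TPM in WT and 19.03, 17.3, 17.5 and 16.7 TPM in Glud1KO, close to touching. The gap thus went from 68.5% at 48 h to 20.03% at 72 h, while WT counts rose between these stages by 1.31 ± 0.064 on the log2 scale (SE, edgeR adjusted p = 3.27e-16).

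Htra3, a secreted serine protease of the HtrA family, showed the opposite order. It was at 31.6, 31.1 and 30.5 TPM in WT and 17.7, 19.6 and 17.9 TPM in Glud1KO in myoblasts and at 43.1, 45.5 and 50.5 TPM in WT and 37.6 and 27.5 TPM in Glud1KO in differentiated myotubes, where the 2 Glud1KO libraries differed widely from each other. In fused myotubes it was at 23.3, 22.2, 24.4 and 27.6 TPM in WT and 3.75, 3.41, 5.36 and 5.18 TPM in Glud1KO, so that the gap of 29.8% at 48 h stood at 81.8% at 72 h. Transcripts under 1000 nt carried 68.5% of the WT TPM of Htra3. Its count-scale log2 fold changes were -0.78 ± 0.073, -0.39 ± 0.077 and -2.33 ± 0.089 (SE), the same order as on the TPM scale.

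Of the other ligands, Gdf15, a stress-induced cytokine, lay close to the limit of the rule in myoblasts, with 7.395, 7.09 and 7.03 TPM in WT and 5.4997, 6.26 and 6.35 TPM in Glud1KO. At 48 h it was at 2.96, 2.88 and 3.04 TPM in WT and 1.07 and 1.06 TPM in Glud1KO, 64.1% lower, and at 72 h 30.96% lower. Fgf6, a fibroblast growth factor of the muscle lineage, was 38.6%, 36.8% and 40.3% lower, from 8.41 ± 0.412 TPM in WT and 5.32 ± 0.693 TPM in Glud1KO at 48 h (SD), where it was highest. Gal, the precursor of the neuropeptide galanin, was at 8.64, 7.74 and 7.99 TPM in WT and 7.69, 5.81 and 6.03 TPM in Glud1KO in myoblasts. Later it held fewer than 10 counts in every library, so its gaps of 75.8% and 73.5% rest on few reads. Vasn, a membrane protein that binds transforming growth factor beta, was 15.7%, 18.6% and 41.2% lower and was also near the limit at 24 h.

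The matrix genes had unequal courses. Col8a1 (chr16:57624258-57754737, minus strand), a chain of the short-chain collagen VIII, was at 55.9, 57.8 and 54.9 TPM in WT and 36.2, 36.6 and 39.2 TPM in Glud1KO in myoblasts and at 7.27, 5.44 and 7.01 TPM in WT and 0.695 and 0.491 TPM in Glud1KO in differentiated myotubes. In fused myotubes it was at 0.354, 0.234, 0.2905 and 0.229 TPM in WT and 0.0488, 0.0428, 0.1004 and 0.0897 TPM in Glud1KO, nearly off in both genotypes. The gap was 33.5%, 90.98% and 74.6%, and WT levels were lower at each later stage, given without a test because Col8a1 met the floor of 1 TPM through its earlier stages. Fibroblast markers at 48 h moved in the same direction as Col8a1, as given above, and their part was not tested. Col25a1, a transmembrane collagen of developing muscle, was 43.4%, 20.4% and 21.6% lower, with 78.4 ± 0.316 TPM in WT and 61.5 ± 0.731 TPM in Glud1KO at 72 h. Mamdc2, a matrix proteoglycan, was 54.6%, 40.2% and 30.7% lower.

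Col8a1 was the only one of the 29 tested genes of a fixed extracellular matrix list that belonged to the set. With Col8a1 counted, the list had 8 genes called lower and 2 called higher in Glud1KO myoblasts, 20 and 1 at 48 h, and 5 and 6 at 72 h. Across all genes tested, 4.86%, 11% and 6.32% were called higher. Its median count-scale log2 fold change was -0.06, -1.13 and -0.28, against 0.01, -0.01 and -0.01 for all genes. Fn1 (fibronectin), for example, was called lower at 48 h, with a log2 fold change of -2.13, and was not called at 24 or 72 h.

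Among receptors and membrane signalling genes, Adgre5, the adhesion G protein-coupled receptor CD97, had the highest WT mean at 24 and 72 h. It was at 102, 91.3 and 93.2 TPM in WT and 56.4, 67.5 and 69.4 TPM in Glud1KO in myoblasts, at 37.5, 39.2 and 43.3 TPM in WT and 19.1 and 18.8 TPM in Glud1KO in differentiated myotubes, and at 82.8, 67.3, 77.4 and 73.7 TPM in WT and 44.97, 53.2, 53.3 and 46.6 TPM in Glud1KO in fused myotubes. WT and Glud1KO libraries were well apart and the means were 32.4%, 52.7% and 34.2% lower. Ddx39 overlaps Adgre5 on the opposite strand, and the sources used here do not say if counting was stranded. Rgs3, which speeds GTP hydrolysis by G protein alpha subunits, was at 43.5, 45.2 and 41.7 TPM in WT and 30.5, 26.6 and 34.8 TPM in Glud1KO in myoblasts. Its levels were 10.3, 7.57 and 9.095 TPM in WT and 3.44 and 2.43 TPM in Glud1KO at 48 h and 21.2, 15.3, 19.6 and 18.9 TPM in WT and 5.94, 6.99, 7.48 and 5.04 TPM in Glud1KO at 72 h. The gap of Rgs3 thus went from 29.5% to 67.3% and 66.1%.

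Traf1, an adaptor of tumour necrosis factor receptors, was a myoblast gene in these cultures, at 1.55, 1.05 and 1.27 TPM in WT and 0.655, 0.379 and 0.543 TPM in Glud1KO at 24 h. Its counts were under 10 in every library at 48 and 72 h, and the gaps there (up to 90.8%) rest on few reads. At 48 h, with 15 counts in WT and 5 in Glud1KO in all, the count-scale log2 fold change of Traf1 was -0.62 ± 0.65 (SE), and the libraries overlapped on that scale. Cd80, a co-stimulatory ligand of T cells, was 21.4%, 57.3% and 42.3% lower, and Tmem176a was 19.6%, 49.7% and 60.2% lower. Tmem176a is overlapped by Tmem176b on the opposite strand, and its libraries overlapped on the count scale at 24 h. Gja5, the gap junction protein connexin 40, kept a near-constant gap of 30.2%, 32.7% and 27.4%, with its top at 48 h (54.3 ± 1.75 TPM in WT and 36.5 ± 0.7697 TPM in Glud1KO). The kinases Dgkg and Cdc42bpg and the semaphorin receptor Plxna2 were 19.1% to 31.4% lower.

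Tap2 (chr17:34203527-34216321, plus strand), a subunit of the transporter that carries peptides into the endoplasmic reticulum for class I presentation, was among the genes at least 2-fold lower at all 3 stages. It was at 24.3, 23.7 and 26.96 TPM in WT and 6.297, 10.2 and 10.01 TPM in Glud1KO in myoblasts, at 26.1, 24.4 and 24.3 TPM in WT and 6.67 and 8.57 TPM in Glud1KO in differentiated myotubes, and at 42.5, 33.8, 34.6 and 33.4 TPM in WT and 17.6, 11.5, 13.5 and 16.8 TPM in Glud1KO in fused myotubes. The means were 64.6%, 69.4% and 58.8% lower, and the count-scale log2 fold changes were -1.70 ± 0.061, -1.63 ± 0.075 and -1.30 ± 0.051 (SE). Irgm1, an interferon-inducible GTPase, was at 8.22, 10.5 and 7.12 TPM in WT and 5.59, 5.93 and 5.71 TPM in Glud1KO in myoblasts and at 3.701, 2.94 and 3.82 TPM in WT and 1.48 and 1.23 TPM in Glud1KO in differentiated myotubes. In fused myotubes Irgm1 was at 12.2, 10.99, 11.2 and 14.3 TPM in WT and 8.68, 10.3, 8.27 and 9.86 TPM in Glud1KO. Its gap was widest at 48 h, at 61.3%, when WT itself was at its lowest.

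Gm12185, a gene model 33 kb from Irgm1 on chromosome 11, held fewer than 10 counts per library at 24 h and no read in either Glud1KO library at 48 h, so no fold is given there. In fused myotubes it was at 1.77, 1.41, 1.999 and 3.19 TPM in WT and 0.897, 1.06, 0.934 and 1.398 TPM in Glud1KO. Reads of this region can be shared with related immunity GTPases, which makes the split between them uncertain. Mcpt8, a protease known from basophils, was 25.3%, 70.3% and 33.2% lower, with 21.6 ± 3.23 TPM in WT and 16.1 ± 0.401 TPM in Glud1KO in myoblasts. Of the 8 immune markers, 6 were under 0.1 TPM in the myoblasts of both genotypes and 2 in the fused myotubes of both. In differentiated myotubes 2 were under it in WT and 5 in Glud1KO. The part of immune cells in these values was not tested. Stretches of 30 bases upstream of Irgm1, Gm12185 and Irx3 are shown for their interferon-stimulated elements (capitals), of which 2 overlap before Irgm1. All 3 stretches lie inside the span of the gene in GENCODE M21.
Irgm1 (chr11:48871428-48871457, minus strand): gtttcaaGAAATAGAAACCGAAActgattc
Gm12185 (chr11:48927238-48927267, minus strand): tccaggaataGAAAGTGAAAcctactctga
Irx3 (chr8:91801746-91801775, minus strand): gcaaccgtgaGAAACAGAAAgagcaaaaag

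A fixed list of interferon response genes with 26 genes tested holds Tap2 and Irgm1. Of its 24 other genes, 6 were called lower and 0 higher at 24 h, 4 and 1 at 48 h, and 1 and 1 at 72 h, beside 6.69%, 14.1% and 6.72% of all genes called lower and 4.86%, 11% and 6.32% called higher. The share lower was thus above that of all genes at 24 h and near it at 48 h, and at 72 h it rests on 1 gene. With Tap2 and Irgm1 counted, which the rule chose for being lower, 8, 6 and 3 of the 26 genes were called lower. Tap1, the partner of Tap2, was called lower at the 3 stages with count-scale log2 fold changes of -0.63, -2.12 and -0.67. Psmb9, an immunoproteasome subunit, was called lower at 24 h, at -1.92, and was not called at 48 h (-4.59, adjusted p = 0.0621) or 72 h (-2.10, adjusted p = 0.282), with edgeR throughout. The class I heavy chain H2-K1 was called lower at 24 h (-0.45) and higher at 48 h (0.37). The median of the 24 genes was -0.23, -0.33 and -0.10, against medians near 0 for all genes.

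Of the stress-response regulators, Atf3 encodes a basic leucine zipper factor induced by many stresses. It was at 4.14, 5.19 and 3.93 TPM in WT and 2.18, 2.52 and 2.24 TPM in Glud1KO in myoblasts, at 10.4, 11.5 and 9.14 TPM in WT and 5.02 and 4.72 TPM in Glud1KO in differentiated myotubes, and at 23.2, 24.7, 19.8 and 25.9 TPM in WT and 10.3, 14.99, 13.2 and 13.5 TPM in Glud1KO in fused myotubes. Genotypes stayed apart as the level climbed in both, and the means were 47.7%, 52.9% and 44.4% lower. Trib3, a pseudokinase induced in the integrated stress response, was highest in myoblasts, with 19.6, 21.5 and 19.2 TPM in WT and 11.01, 11.8 and 11.3 TPM in Glud1KO. It was at 6.91, 6.43 and 6.79 TPM in WT and 2.42 and 2.85 TPM in Glud1KO in differentiated and at 9.898, 10.3, 8.74 and 7.26 TPM in WT and 5.55, 5.68, 5.59 and 5.92 TPM in Glud1KO in fused myotubes, 43.3%, 60.7% and 37.1% lower. Pmaip1 (Noxa), a pro-apoptotic BH3-only protein, had an even gap of 22.6%, 26.7% and 25.03%. The composite element TGATGNAA, bound by ATF4 with C/EBP factors and picked after the members were known, occurred before 2 members, Atf3 and Gpam, shown here with the element in capitals. That of Atf3 reads on the reverse strand of the printed sequence, and its stretch lies inside the span of the gene in GENCODE M21.
Atf3 (chr1:191183425-191183454, minus strand): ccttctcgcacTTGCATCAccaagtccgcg
Gpam (chr19:55127242-55127271, minus strand): tggttattattTGATGAAAgagccttcctc

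Trib3 and Atf3 are on none of the fixed lists. In a fixed list of glutamate, aspartate and serine metabolism with 26 genes tested, Glud1 among them, 4 genes were called lower and 1 higher at 24 h, 8 and 2 at 48 h, and 2 and 5 at 72 h, beside 6.69%, 14.1% and 6.72% of all genes called lower and 4.86%, 11% and 6.32% called higher. Asns (asparagine synthetase) and Psat1 were both called higher at 72 h, each with a log2 fold change of 0.36, and were not called at 24 or 48 h. Phgdh, Mthfd2 and Aldh18a1 were called lower at 48 h (-0.40, -0.33 and -0.41) and higher at 72 h (0.16, 0.41 and 0.18). Slc7a11, the cystine-glutamate exchanger, was called lower at the 3 stages, at -0.27, -1.32 and -0.81.

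The 12 transcription and chromatin genes had medians of -0.66, -0.76 and -0.47 (log2 TPM ratio). Khdrbs3, an RNA-binding splicing regulator placed with them, had the highest WT mean of the group in myoblasts, at 95.9, 100.4 and 101 TPM in WT and 87.9, 76.8 and 83.3 TPM in Glud1KO in myoblasts. It was 16.5%, 52.7% and 41.9% lower. Ets2, an ETS family factor downstream of Ras signalling, was at 34.98, 32.7 and 36.7 TPM in WT and 18.8, 23.4 and 17.7 TPM in Glud1KO in myoblasts and at 7.96, 8.58 and 8.05 TPM in WT and 2.81 and 3.02 TPM in Glud1KO in differentiated myotubes. It was 42.6%, 64.4% and 28.1% lower, with the groups apart at each stage. Pknox2, a TALE homeobox factor, was at 42.1, 34.7, 37.3 and 34.9 TPM in WT and 21.6, 17.1, 16.2 and 17.5 TPM in Glud1KO in fused myotubes and 50.3%, 44.04% and 51.5% lower.

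Irx3, an Iroquois homeobox factor, had higher WT levels at the later stages and its widest gap at 24 h. It was at 0.934, 0.561 and 0.913 TPM in WT and 0.4699, 0.317 and 0.382 TPM in Glud1KO in myoblasts and at 13.1, 11.6, 13.9 and 13.1 TPM in WT and 10.9, 9.47, 9.45 and 9.55 TPM in Glud1KO in fused myotubes, 51.5%, 26.5% and 23.8% lower. Zmiz1, a co-regulator and the member nearest to Glud1, was 28.7%, 39.6% and 20.7% lower, and the Groucho corepressor Tle3 was 23.1%, 40.9% and 27.8% lower. Sim2, Rai1 and the repressor Bhlhe40 were also lower. Hist1h2ad, a replication-dependent H2A gene whose near-identical copies can share reads, held fewer than 10 counts per library at 24 and 72 h.

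Tet2, a dioxygenase that oxidises 5-methylcytosine and uses alpha-ketoglutarate, was at 5.65, 5.18 and 3.47 TPM in WT and 2.26, 2.93 and 2.64 TPM in Glud1KO in myoblasts, a gap of 45.3%. On the count scale its log2 fold changes were -0.28 ± 0.11, -0.12 ± 0.11 and -0.19 ± 0.10 (SE), small beside the TPM gap in myoblasts. In myoblasts a short transcript model carried most of that gap. The 423-nt ENSMUST00000197118 was at 1.86 ± 1.17 TPM in WT and 0.0464 ± 0.0804 TPM in Glud1KO myoblasts, while the 9179-nt ENSMUST00000098603 was at 1.18 ± 0.0823 and 1.73 ± 0.17 TPM and the 9021-nt ENSMUST00000196398 at 1.08 ± 0.36 and 0.126 ± 0.207 TPM. The longest transcript thus had the higher mean in Glud1KO myoblasts and the other long one the lower. Later the TPM gaps of Tet2 were 17.4% and 22.2%, and the 423-nt model was not lower in Glud1KO. The 9179-nt transcript was at 4.44 ± 0.815 and 3.14 ± 0.662 TPM in WT and Glud1KO at 48 h. At 72 h it was at 2.95 ± 0.445 and 2.22 ± 1.10 TPM. Another short model, the 472-nt ENSMUST00000198974, was at 0.258 ± 0.447 TPM in WT and 0 in Glud1KO at 48 h. At 72 h this model was at 0.721 ± 0.584 TPM and 0, from a mean of 2.96 counts in WT. The 9021-nt transcript had the higher mean in Glud1KO, at 1.53 against 1.24 TPM at 48 h and 0.478 against 0.066 TPM at 72 h. The part of each transcript in the later gaps was not tested.

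The 6 muscle fibre genes include a myosin and a myogenic factor. Myh7, the slow myosin heavy chain, was at 14.1, 16.1 and 18.3 TPM in WT and 9.08, 7.77 and 7.21 TPM in Glud1KO in myoblasts, at 195, 191 and 231 TPM in WT and 125 and 136 TPM in Glud1KO in differentiated myotubes, and at 153, 129, 161 and 187 TPM in WT and 92.2, 87.8, 85.9 and 96.03 TPM in Glud1KO in fused myotubes. The means were 50.4%, 36.5% and 42.5% lower. Mhrt, an antisense transcript, overlaps Myh7, and related myosin genes can share reads with it. Myf6 (MRF4), the last of the myogenic bHLH factors to appear, was at 2.48, 2.78 and 2.96 TPM in WT and 1.88, 1.57 and 2.04 TPM in Glud1KO in myoblasts. It was at 47.4, 43.8 and 47.7 TPM in WT and 31.5 and 37.6 TPM in Glud1KO in differentiated and at 204, 203, 190.2 and 186 TPM in WT and 143, 144, 136 and 136 TPM in Glud1KO in fused myotubes, 33.3%, 25.4% and 28.6% lower. Groups were apart at each stage, although the gap was small against the rise of 4.21 ± 0.10 and then 2.19 ± 0.053 log2 units in WT counts (SE, edgeR adjusted p = 7.01e-24 and 7.25e-23).

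Adprhl1, an ADP-ribosylhydrolase-like protein of striated muscle, was at 87.3, 87.1, 86.05 and 76.9 TPM in WT and 63.4, 65.2, 67.9 and 70.8 TPM in Glud1KO in fused myotubes and 45.3%, 23.2% and 20.8% lower. Fbxo32 (atrogin-1), a ubiquitin ligase subunit of muscle atrophy, and Asb4, another ligase adaptor, were lower as well, by 28.2%, 21.9% and 23.8% and by 41.2%, 48.9% and 30.3%. The 6 genes had their lowest median ratio in myoblasts, -0.81, against -0.40 and -0.44 later. In myoblasts, however, Asb4, Adprhl1 and Myf6 were not called on the count scale. Adprhl1 was at 0.624, 0.760 and 0.720 TPM in WT there, and its libraries overlapped on the count scale. Markers of differentiating muscle (8 genes) also summed to less in Glud1KO myoblasts, 1283 to 1529 TPM against 2196 to 2462 TPM in WT, and their part in these values was not tested.

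The sarcomere as a whole did not stay lower. Of 30 genes on a fixed list of sarcomere and contraction genes, 23 were called lower and 2 higher in Glud1KO myoblasts, 3 and 15 in differentiated myotubes, and 3 and 2 in fused myotubes, beside 6.69%, 14.1% and 6.72% of all genes called lower and 4.86%, 11% and 6.32% called higher. Myh7, counted among those called lower at each stage, was the single gene of that list in the set. Mylpf, the fast regulatory light chain, had log2 fold changes of -0.72 at 24 h, 0.24 at 48 h and 0.18 at 72 h. Neb (nebulin) was called lower at all 3 stages on the count scale, at -0.51, -0.40 and -0.49.

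The lowest mean ratios over the stages were those of the enzymes Dbh and Tmem86a. Dbh (chr2:27165233-27183200, plus strand), dopamine beta-hydroxylase, which makes noradrenaline, was at 0.454, 0.595 and 0.381 TPM in WT and 0.0152, 0 and 0.0178 TPM in Glud1KO in myoblasts, with at most 1 count in a Glud1KO library. In differentiated myotubes it was at 2.29, 3.05 and 1.92 TPM in WT and 0.147 and 0.234 TPM in Glud1KO, 92.1% lower, and in fused myotubes at 6.73, 2.44, 3.29 and 3.08 TPM in WT and 0.0279, 0.266, 0.1498 and 0.184 TPM in Glud1KO, 95.96% lower. Dbh stayed a gene of low level even in WT. Tmem86a (chr7:47050601-47054777, plus strand), a lysoplasmalogenase of lipid metabolism, was at 13.03, 13.1 and 13.5 TPM in WT and 1.27, 1.01 and 1.25 TPM in Glud1KO in myoblasts. It was at 2.88, 2.65 and 2.66 TPM in WT and 0.324 and 0.308 TPM in Glud1KO in differentiated myotubes and at 2.91, 2.32, 2.11 and 2.04 TPM in WT and 1.48, 1.06, 1.35 and 1.42 TPM in Glud1KO in fused myotubes. The gap of Tmem86a was thus 91.1%, 88.4% and 43.5%.

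Acot4, a peroxisomal acyl-CoA thioesterase, was at 0.794, 1.42 and 0.693 TPM in WT and 0.273, 0.312 and 0.295 TPM in Glud1KO in myoblasts, at 3.69, 6.297 and 4.22 TPM in WT and 2.903 and 2.401 TPM in Glud1KO in differentiated myotubes, and at 1.54, 1.28, 1.36 and 1.53 TPM in WT and 0.3799, 0.437, 0.414 and 0.4698 TPM in Glud1KO in fused myotubes. It was 69.7%, 43.98% and 70.2% lower. Related Acot genes lie beside it, and Acot2 missed the rule by a narrow margin. Gpam, which starts glycerolipid synthesis at the mitochondrion, was at 24.6, 25.4 and 24.6 TPM in WT and 14.8, 15.6 and 15.8 TPM in Glud1KO in myoblasts and 59.6, 55.5, 52.2 and 58.2 TPM in WT and 33.7, 33.5, 34.96 and 36.5 TPM in Glud1KO in fused myotubes, 37.98%, 25.01% and 38.5% lower. Slc2a6, a glucose transporter family member, was 37.01%, 45.3% and 26.8% lower, and Ptgs1 (cyclooxygenase 1) was 29.9%, 35.4% and 45.4% lower. Lipo3, a lipase with close relatives, was 43.9%, 24.97% and 63.5% lower. Rnaset2a, a ribonuclease with a near-identical copy, was 15.3%, 33.3% and 23.6% lower. The 250 bases before the Acot4 start site are shown because they hold, for a strongly lowered lipid enzyme, a nuclear receptor element AGGTCA and an AP-1 element TGANTCA in capitals, the former on the reverse strand.
Acot4 (chr12:84038129-84038378, plus strand): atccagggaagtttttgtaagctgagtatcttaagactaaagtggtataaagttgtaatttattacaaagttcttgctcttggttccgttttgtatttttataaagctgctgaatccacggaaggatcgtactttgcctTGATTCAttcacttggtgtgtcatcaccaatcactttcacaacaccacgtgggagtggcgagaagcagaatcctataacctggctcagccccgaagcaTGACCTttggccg

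In the cytoskeletal and junction group, Cgnl1 (chr9:71626509-71771602, minus strand), the junction protein paracingulin, stood out. It was at 8.37, 9.12 and 11.8 TPM in WT and 0.893, 2.01 and 2.05 TPM in Glud1KO in myoblasts, at 31.6, 35.05 and 32.97 TPM in WT and 16.7 and 14.9 TPM in Glud1KO in differentiated myotubes, and at 36.6, 32.7, 35.2 and 33.6 TPM in WT and 15.7, 14.9, 15.4 and 17.9 TPM in Glud1KO in fused myotubes. The means were 83.1%, 52.4% and 53.7% lower, and the count-scale fold change in myoblasts was -3.13 ± 0.084 log2 units (SE). Ajuba, a LIM protein of junctions and Hippo signalling, was at 56.1, 56.2 and 58.7 TPM in WT and 35.7 and 36.99 TPM in Glud1KO in differentiated myotubes and 17.3%, 36.3% and 42.01% lower. Kank1, which links integrin adhesions to microtubules, was 41.5%, 51.2% and 26.7% lower, and Map1a, a microtubule-associated protein, was 33.4%, 62.2% and 24.1% lower. Ttc28, Yipf2 (Golgi), Nbea (vesicle traffic) and Shroom2 (actin) completed the group.

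**Figure D3:**
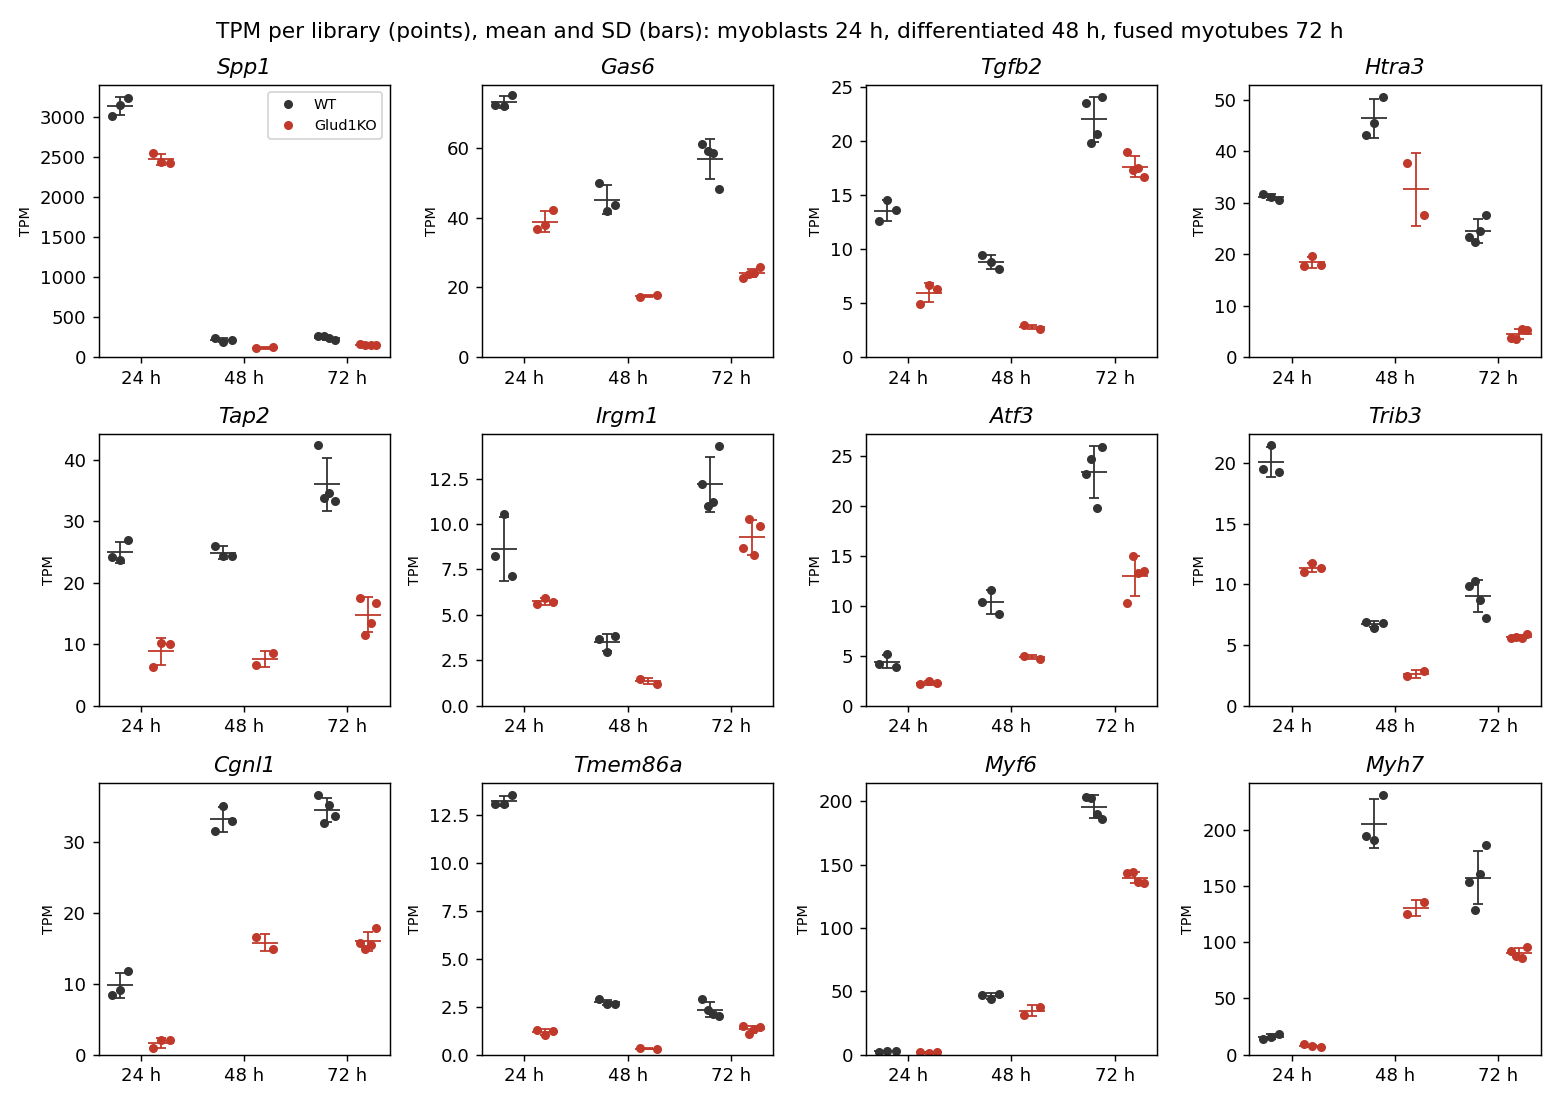
TPM in each library (points) with mean and SD (bars) for 12 of the 62 genes, WT dark and Glud1KO red, at 24, 48 and 72 h. Spp1 falls from 3138 to 208 TPM in WT between 24 and 48 h, Myf6 climbs to 196 TPM in WT at 72 h, and in every panel the red points lie below the dark ones at each stage.

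The rule compared the genotypes, not the stages, so changes between stages within a genotype were tested, although in the same libraries. They are not fully independent of the rule, since 15 members had a WT mean under 1 TPM at some stage and met the floor through another, Adprhl1, Fgf6, Irx3, Col8a1 and Gal among them. The 62 genes did not share a course. In WT, 32 were called higher and 25 lower in differentiated myotubes than in myoblasts, and 5 were not called, beside 42.4% higher and 42.6% lower (85% in either direction) of all 15123 genes (edgeR, adjusted p under 0.05). Of the 15 genes, 10 were among those higher and 4 among those lower. From differentiated to fused myotubes 34 were higher and 17 lower, 7 and 5 of them among the 15 genes, beside 37.4% and 37.7% (75.1% together). The Glud1KO libraries gave 31 higher and 26 lower at the former step, 9 and 4 of them among the 15, beside 41.3% and 42.5% (83.7% together). They gave 35 and 18 at the latter, 6 and 5 of them among the 15, beside 35.8% and 34.4% (70.2% together). With library size as the only scaling, the split at the former step became 29 and 29 in WT and 28 and 29 in Glud1KO. Whether the courses of the genotypes differ was not tested, since that difference is built from the contrasts the rule used.

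From 24 to 48 h in WT, Myh7 rose by 4.34 ± 0.083 log2 units (SE, edgeR adjusted p = 5.15e-26) and then fell by 0.32 (SE 0.063, adjusted p = 5.63e-05). Spp1 fell by 3.76 and Ptgs1 by 3.60 at the former step. Genes that fell in WT at this step (25) had a median TPM log2 ratio of -1.22 between genotypes at 48 h, and genes that rose (32) of -0.64. In myoblasts the order was turned, with -0.50 and -0.76. These medians share WT libraries with the calls and are given as a description.

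**Figure D4:**
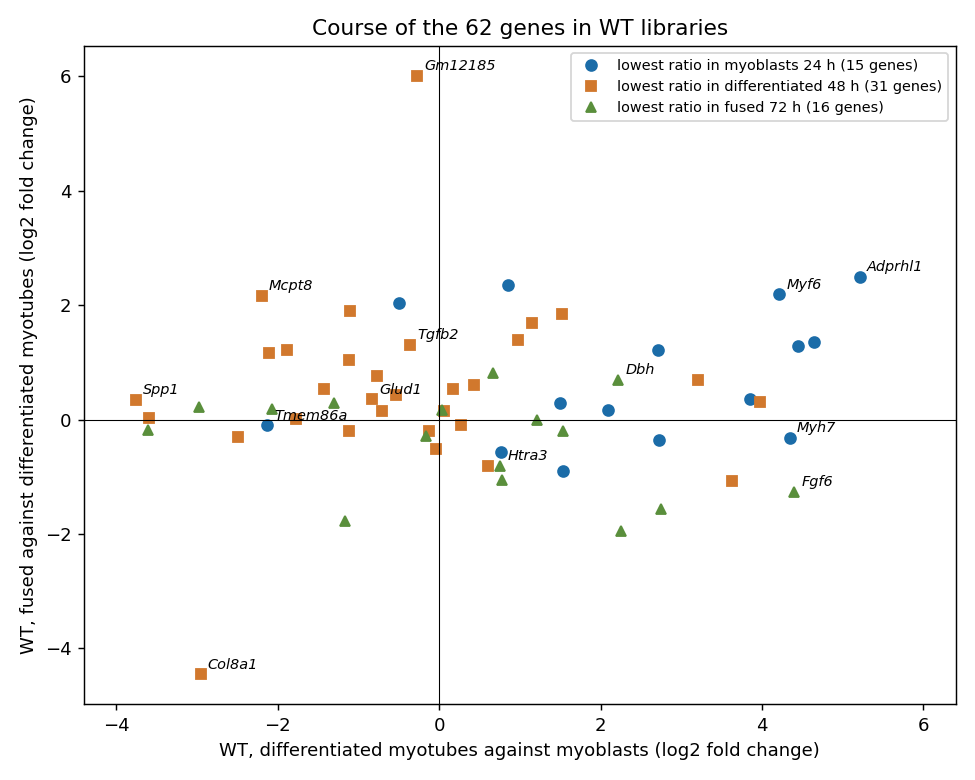
Log2 fold change in WT counts from myoblasts to differentiated myotubes (horizontal) and from differentiated to fused myotubes (vertical) for the 62 genes, marked by the stage with the lowest ratio of Glud1KO to WT. Genes lowest at 24 h (circles, 15) lie mostly to the right, where WT levels rise at 48 h, while genes lowest at 48 h (squares, 31) lie on both sides.

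Part of the set depends on the scale. Read on CPM in place of TPM, the rule gave 68 genes, of which 44 were shared (71.0% of the TPM set, 64.7% of the other). Among the 18 genes found on the TPM scale alone were Traf1, Gal, Tmem176a, Khdrbs3, Bhlhe40, Adprhl1, Tet2, Col25a1, Vasn, Dgkg, Fbxo32, Rnaset2a, Cdc42bpg, Plxna2, Shroom2, Glud1 and Rai1. Among the 24 found on the count scale alone were Tap1, Lif, Osmr, Nr4a1, Serpine2, Tgfa, Prox1 and Myh7b. Lif and Osmr, a cytokine and a receptor of the interleukin 6 family, were chosen for naming after their values were seen. Median count-scale log2 fold changes of the 62 genes were -0.56, -0.69 and -0.49, against 0.01, -0.01 and -0.01 over all genes tested. In myoblasts Bhlhe40 was, like Tet2, moved by a short model, since its 476-nt transcript was at 1.52 ± 1.41 TPM in WT and near 0 in Glud1KO myoblasts while the 3113-nt transcript was at 3.78 ± 0.527 and 3.02 ± 0.271 TPM. Transcripts under 1000 nt carried a median of 9.44% of the WT TPM in the 18 genes, 3.61% in the 44 shared genes and 10.4% in all 12048.

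**Figure D5:**
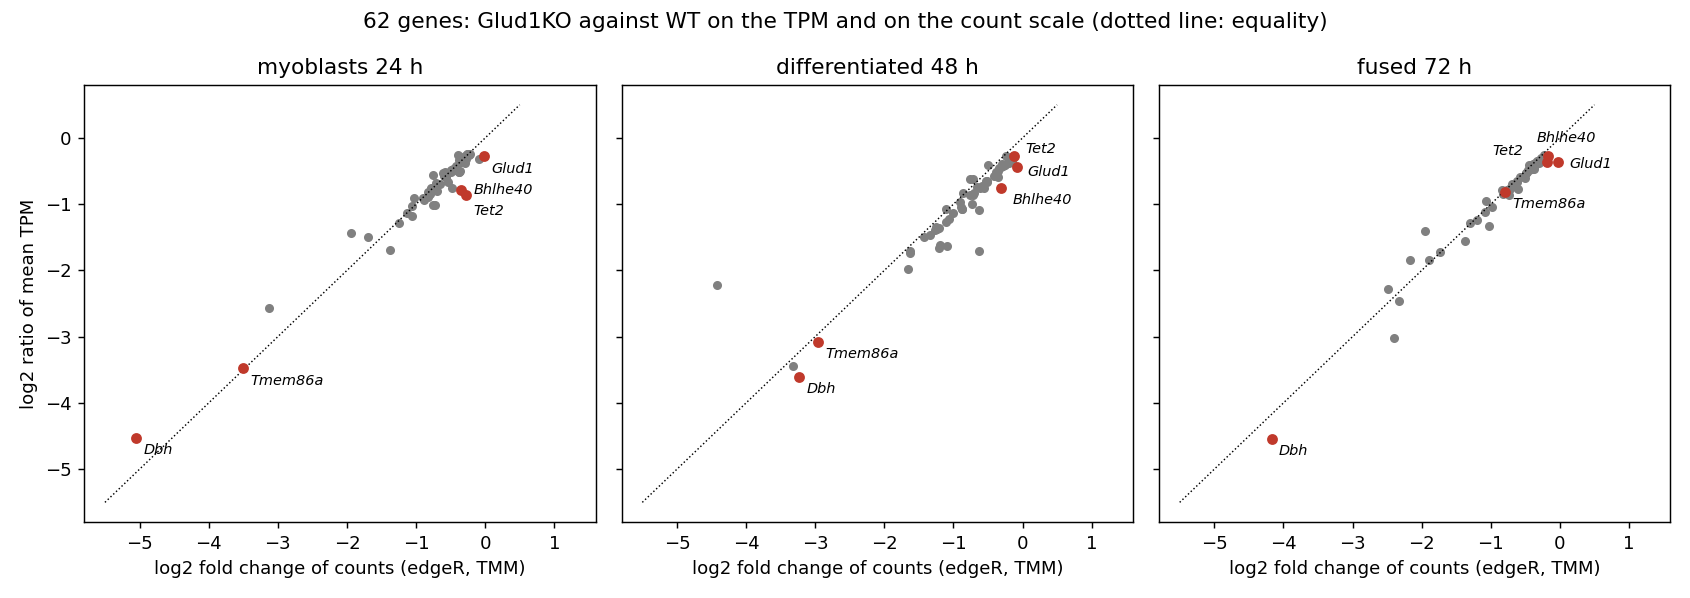
Log2 fold change of counts (horizontal, edgeR with TMM) against log2 ratio of mean TPM (vertical) for the 62 genes at each stage, with equality dotted. Most genes follow the line, including Tmem86a, while Glud1 lies near 0 on the count axis at all 3 stages (-0.02, -0.09 and -0.02) and Tet2 and Bhlhe40 lie below the line at 24 h.

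The genes were spread over the genome. Chromosomes 16, 19 and 2 held 6 each, of 390, 428 and 974 eligible genes, and chromosome 14, that of Glud1, held 5 of 457. The nearest member to Glud1 was Zmiz1 at a distance of 8.64 Mb, followed by Ajuba and Myh7 at 20.2 and 20.6 Mb. Members lay within 1 Mb of each other in 4 cases, namely Gm12185 and Irgm1 (33 kb), Dbh and Slc2a6 (137 kb), Gas6 and Adprhl1 (211 kb), and Myh7 and Ajuba (393 kb). Most of the genes left out by name lay near Spp1 on chromosome 5. Gbp8 was 573 kb from it, and Gbp9, Gbp4, Gbp10, Gbp6, Lrrc8b and Lrrc8c were 637 to 1078 kb from it. The median transcript length was 2723 nt against 2344 nt for eligible genes, and the median GC content 52.96% against 50.5%.

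Upstream windows of 250 bases (RefSeq, GRCm38.p6) could be matched for 48 of the 62 genes, with 59 windows, and were searched on both strands beside all 32851 windows. The estrogen response element, GGTCA and TGACC with 3 free bases between them, was in none of the members' windows and in 0.0639% of all. AGGTCA was in 10.2% against 14.02%, the interferon gamma-activated site TTCNNNGAA in 3.39% against 7.02%, and the repeat of GAAA after 2 free bases in 6.78% (4 windows) against 2.98%. The E-box CANNTG, the site of myogenic bHLH factors, was in 66.1% against 66.2%, TGANTCA in 5.08% against 6.75%, the TATA box TATAAA in 16.9% against 12.4%, GGGCGG in 44.1% against 32.7%, CCAAT in 35.6% against 33.8%, and TGATGNAA in 3.39% against 3.45%. AGGTCA overlaps the longer estrogen element, and genes with several windows count more than once. A match describes letters, not binding, and no match covers these windows alone.

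At the limit of the rule, the members with the highest stage ratio were Rnaset2a (0.847), Vasn (0.843) and Gdf15 (0.842). Just outside were Setbp1 (0.852), Acot2 (0.853) and H2-D1 (0.853). The lowest WT top levels among members were those of Traf1 (1.29 TPM), Dgkg (1.32 TPM) and Sim2 (1.59 TPM), near the floor of 1 TPM. The median top level in WT was 21.6 TPM, against 24.96 TPM for eligible genes. Estrogen response genes (21 tested), a list fixed with earlier results known, held no member. Greb1 and Pgr of that list are also left out by name, but neither met the thresholds at all 3 stages together with the floor. They were called lower at each stage, Greb1 at -3.22, -3.44 and -2.87 and Pgr at -7.88, -2.83 and -3.22 (count-scale log2 fold change). In the list 7, 9 and 4 genes were called lower and 0, 1 and 5 higher at the 3 stages. Of all genes, 6.69%, 14.1% and 6.72% were called lower and 4.86%, 11% and 6.32% higher. These shares also stand beside the replication and lipid synthesis counts that follow. DNA replication and mitosis genes (25) held no member either, and 0, 17 and 1 were called lower and 11, 2 and 2 higher. Nor did cholesterol and fatty acid synthesis genes (22) hold one, with 1, 9 and 2 called lower and 4, 2 and 1 higher.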

How the data were processed

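Messenger RNA of 19 libraries was measured. Per the submitters' processing notes, bcl2fastq 2.20, fastp 0.20.0, kallisto 0.46.1 and edgeR 3.36 were used with build GRCm38.p6, and per the labels the kit was Illumina TruSeq mRNA. The options are not given in the sources used here. The authors deposited, per the file headers, an estimated count and a TPM value for each of 121843 transcripts. The deposited TPM was summed per gene with the GENCODE M21 annotation, which matched 121018 transcripts. The 825 others held 0.255% to 0.507% of the counts and were left out. Kallisto shares reads among transcripts, so members of gene families can exchange counts.

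Deposited estimated counts were summed per gene and rounded, and tested with edgeR 4.0.16 (R 4.3.3) in 1 quasi-likelihood fit of all 19 libraries and 6 groups, after TMM scaling and filterByExpr, which left 15123 of 35598 genes. P-values were adjusted by Benjamini-Hochberg over these genes. Alternatives used DESeq2 1.42.0 and limma 3.58.1 on log2(TPM + 1). The common biological coefficient of variation was 4.03%, and replicates differed by more than counting error (chi-square per degree of freedom 2.14 to 7.66).

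The members, gene lists and marker lists were chosen with earlier results of these data known, and the grouping by role and the composite motif after the members were seen. Genes named by rule were the 12 with the lowest mean log2 ratio, the 8 with the highest WT level, the 4 with the most unequal ratios, the 3 nearest to the limit on either side, members on the fixed lists, and members near Glud1 or each other, 26 in all. Other members are described for their role, chosen after their values were seen. The counts cover all 62 genes, of which 2 are not reported by name here.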

Additional observations from a re-analysis of the deposited data

Results flagged for a closer look

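In the groups of 4 libraries, 52 sets of values of the named genes were screened for a library far from the others, by Dixon's criterion (gap to the nearest library over the group's range). Chance alone passes about 1 in 20 such groups. Tap2 in WT fused myotubes was highest in replicate 1, at 42.5 TPM, with the other 3 libraries at 33.4 to 34.6 TPM and a gap of 0.868 of the range. Adprhl1 in WT fused myotubes was lowest in replicate 4, at 76.9 TPM, with the others at 86.05 to 87.3 TPM and a gap of 0.879.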

How the results depend on the processing

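With a ratio of at most 0.90 in place of 0.85 the rule gave 104 genes, all 62 among them. With 0.80 it gave 46, with a WT floor of 5 TPM 54, and leaving out 1 library at a time 61 to 81, of which 58 to 62 were shared with the 62. Leaving out a library makes full separation easier to reach. Counts of members called lower were 40 to 48 at 24 h, 42 to 48 at 48 h and 55 to 59 at 72 h without 1 library each, and counts of members changed between stages 50 to 57. Other scalings, filters and tools kept every such count within 1.5 times its value. Replicate numbers were not used to pair the libraries. Deviations of same-numbered libraries correlated at -0.051 to 0.039, and 5 of 14 libraries correlated best with their own number. In WT differentiated myotubes against myoblasts all 3 libraries did so, at 0.039, 0.025 and 0.036. With the replicate number as a block, 50, 48 and 59 members were called lower. For the 26 named genes, 1071 values moved by less than their error, 110 by more and 0 reversed. Of the 110, 46 came from limma on log2(TPM + 1), where 32 moved by less. Members under 10 counts per library (Gm12185, Hist1h2ad, Traf1 and Gal at some stages) are limited by depth, and 2 Glud1KO libraries at 48 h limit that stage.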
